A study of Homo sapiens with 12 samples.

Results

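ML-2, a human cell line from acute myeloid leukaemia that is known for a fusion of KMT2A with AFDN, was exposed to a demethylating drug followed by an antagonist of the inhibitor of apoptosis proteins, and the combined treatment was set against solvent across all genes. The members are the 6 arrays labelled as combination or solvent control, out of 12 arrays in the series. In the combination group (3 arrays) the cells received 2 µM SGI-110 for 24 h and then 5 µM ASTX660 for 9 h. In the SGI-110 group (3 arrays) they received 2 µM SGI-110 alone, with a labelled time of 33 h, and in the ASTX660 group (3 arrays) they received 5 µM ASTX660 alone for 9 h. The solvent group (3 arrays) received vehicle without either drug. The design text counts 3 independent experiments, and each group carries the array numbers 2, 9 and 13, read here as experiment numbers, a reading that the labels do not spell out. All arrays came from 1 cell line, and the labels do not say whether SGI-110 stayed in the medium while ASTX660 was present. Values below are log2 intensities, differences are combination minus solvent unless another pair is named, and sets of 3 values run in the order of arrays 2, 9 and 13.

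SGI-110, also called guadecitabine, is a dinucleotide of decitabine and deoxyguanosine. Once decitabine is built into DNA it traps DNA methyltransferases on it, which lowers methylation as cells divide, leaves protein adducts on the DNA and can activate p53. Demethylation is known to open germline genes and endogenous retroviral repeats, and double-stranded RNA from such repeats can start an interferon response. ASTX660, also called tolinapant, blocks XIAP and the cellular IAP proteins BIRC2 and BIRC3. XIAP restrains caspases, while BIRC2 and BIRC3 keep the TNF receptor complex from killing the cell and hold down the kinase of the non-canonical NF-kB pathway, MAP3K14. Loss of the cellular IAP proteins turns death receptor ligands into death signals, which run through caspase-8 or, where that is blocked, through RIPK1, RIPK3 and MLKL.

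MIR34A, the gene of a miRNA that p53 is known to induce, was among the 15 genes with the largest rises, and its mature sequences follow because the array names them through their host transcript. The sequences are from RefSeq (GRCh38.p14), in RNA letters, with the seed, bases 2 to 8, in capitals. The arms lie at chr1:9151735-9151756 and chr1:9151693-9151714, both on the minus strand.
hsa-miR-34a-5p: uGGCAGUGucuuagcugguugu
hsa-miR-34a-3p: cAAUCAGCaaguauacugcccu
The probe set reads the primary transcript, so the level of the mature miRNA was not measured. Of 10 miRNA host transcripts that passed the filter on dim values, 2 rose and none fell, the other being MIR142 with a difference of 0.31 and an adjusted p of 0.0359.

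Promoters of 6 genes named in the results are shown in the same RefSeq build. Each runs from 250 bases before to 50 bases after the most upstream listed start, 5′ to 3′ on the gene's strand. The first 2 belong to germline genes that rose, TKTL1 (chrX:154295545-154295844, plus strand) and MAEL (chr1:166975332-166975631, plus strand), with each CpG, the site of DNA methylation, in capitals. TKTL1 holds 18 CpG in the window and MAEL 60, against a median of 26 over the 10227 tested genes with a window.
TKTL1: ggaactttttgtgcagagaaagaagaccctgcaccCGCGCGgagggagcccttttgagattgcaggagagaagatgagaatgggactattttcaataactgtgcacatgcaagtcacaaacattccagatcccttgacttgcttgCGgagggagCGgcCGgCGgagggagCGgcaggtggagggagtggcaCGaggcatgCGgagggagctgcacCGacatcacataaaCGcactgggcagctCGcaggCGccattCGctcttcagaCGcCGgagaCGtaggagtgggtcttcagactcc
MAEL: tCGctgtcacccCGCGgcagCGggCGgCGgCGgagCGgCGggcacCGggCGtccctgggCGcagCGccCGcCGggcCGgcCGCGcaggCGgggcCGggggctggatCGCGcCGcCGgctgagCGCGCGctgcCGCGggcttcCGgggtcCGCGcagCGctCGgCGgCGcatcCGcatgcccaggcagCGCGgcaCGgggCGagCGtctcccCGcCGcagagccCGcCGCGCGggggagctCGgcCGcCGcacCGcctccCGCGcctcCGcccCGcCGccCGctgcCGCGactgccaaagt
The next pair belongs to an interferon-stimulated gene, IFIT3 (chr10:89327747-89328046, plus strand), and a chemokine gene, CXCL1 (chr4:73869143-73869442, plus strand). Capitals mark the interferon-stimulated response element (ISRE, GAAA, 2 free bases and GAAA on either strand), with 2 matches in IFIT3 of which the first begins at position −156 from the start, and the NF-kB site (GGGA, 2 free bases and TTCC on either strand) at −79 in CXCL1, where 2 matches overlap.
IFIT3: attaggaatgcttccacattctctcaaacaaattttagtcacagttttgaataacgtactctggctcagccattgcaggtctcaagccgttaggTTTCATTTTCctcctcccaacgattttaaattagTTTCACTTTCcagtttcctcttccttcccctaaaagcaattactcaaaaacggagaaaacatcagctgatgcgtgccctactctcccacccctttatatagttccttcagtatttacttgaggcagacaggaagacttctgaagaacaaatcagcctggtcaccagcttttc
CXCL1: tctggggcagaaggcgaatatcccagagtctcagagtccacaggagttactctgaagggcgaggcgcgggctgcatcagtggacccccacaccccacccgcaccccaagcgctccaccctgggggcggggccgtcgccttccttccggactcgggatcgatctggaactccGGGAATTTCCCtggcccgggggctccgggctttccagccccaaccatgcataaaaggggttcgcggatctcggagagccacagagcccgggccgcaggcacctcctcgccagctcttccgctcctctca
The last pair belongs to genes that fell, the mitotic cyclin CCNB2 (chr15:59104896-59105195, plus strand) and asparagine synthetase, ASNS (chr7:97872359-97872658, minus strand). Capitals mark the CHR, the cell cycle genes homology region (TTTGAA), at −29, and the ATF4 element (TGATGNAA) at −68, both searched on either strand.
CCNB2: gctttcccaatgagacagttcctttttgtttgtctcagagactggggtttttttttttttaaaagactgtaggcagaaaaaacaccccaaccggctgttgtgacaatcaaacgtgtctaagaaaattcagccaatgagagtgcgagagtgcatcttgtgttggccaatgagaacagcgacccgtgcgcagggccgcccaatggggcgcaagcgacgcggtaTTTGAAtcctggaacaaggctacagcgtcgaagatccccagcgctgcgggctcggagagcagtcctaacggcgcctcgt
ASNS: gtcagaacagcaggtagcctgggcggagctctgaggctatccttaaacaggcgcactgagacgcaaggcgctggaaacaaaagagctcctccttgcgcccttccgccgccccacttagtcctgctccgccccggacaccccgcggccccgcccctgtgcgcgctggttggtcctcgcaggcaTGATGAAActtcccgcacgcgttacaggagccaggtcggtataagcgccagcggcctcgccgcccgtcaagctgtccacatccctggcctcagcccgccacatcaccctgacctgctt
An ISRE match was present in 13 of the 22 tested interferon-stimulated genes with a window, against 3.66% of all 27305 promoters in the table. It stood in 8 of the 14 that rose and in 4 of the 7 that were not called. A CHR match stood in 24 of 35 mitotic genes, against 15.5% of all promoters, in 8 of the 14 that fell and 16 of the 21 not called. An NF-kB site stood in 5 of 18 inflammatory targets, against 1.63% of all promoters. It stood in 2 of the 9 that rose and 3 of the 9 not called. The ATF4 element stood in 3 of 16 integrated stress response genes, against 3.67% of all promoters. It stood in 1 of the 4 that fell and 2 of the 12 not called. Matches are letters in a window and were not tested for binding.

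The 12 arrays had similar brightness, with medians between 4.69 and 4.77. Principal component 1 held 51.2% of the variance and separated the 6 arrays that received SGI-110 from the 6 that did not, component 2 held 13.9% and set the arrays numbered 13 apart in every group, and component 3 held 11.7% and set ASTX660 array 2 apart. Over the tested genes, arrays correlated at 0.9959 to 0.9961 within the combination group, at 0.9962 to 0.9976 within the solvent group and at 0.9872 to 0.9924 between them. The mean level of the myeloid leukaemia marker list was 8.28 to 8.37 in combination arrays and 8.15 to 8.22 in solvent arrays, with 8 of its 12 measured members above the median of all 12 arrays. Markers of other lineages had lower means: the erythroid and megakaryocyte list averaged 5.03 to 5.12 in combination arrays and 5.11 to 5.16 in solvent arrays, and the lymphoid list 5.09 to 5.14 and 5.15 to 5.23. Above the median of every array stood 6 of 15 measured erythroid, 9 of 20 lymphoid and 9 of 18 fibroblast and epithelial members, so the markers were not absent. The fibroblast and epithelial list averaged 4.99 to 5.10 in combination arrays and 4.88 to 4.94 in solvent arrays, and its 3 risen members were ACTA2 with 1.57, KRT18 with 0.78 and PDGFRB with 0.37, whose part in the results was not tested. In bulk RNA, fewer cells of a type and less RNA per cell cannot be told apart.

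The combination changed many genes, mostly by small amounts, and the large changes were nearly all rises. Of 12689 tested genes, 2275 (17.9%) were called between the combination and solvent by limma at an adjusted p under 0.05. Among them 1533 (12.1% of those tested) were higher and 742 (5.85%) lower in the combination. The shares of 12.1% and 5.85% are those to hold unblocked list counts against. At least 2-fold changes were found in 110 genes (0.867%), of which 106 (0.835%) were higher and 4 (0.0315%) lower. The balance depends on scaling: 67.4% of calls were higher as deposited, 77.3% of 2026 calls after centring each array on its median, 54.1% of 2523 after quantile normalisation and 35.2% of 2953 after centring on the tested genes. With the array number as a block, 3632 genes (28.6%) were called, 18.6% of the tested genes higher and 10% lower, which are the shares to hold blocked list counts against, and without solvent array 9 the count was 1389.

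**Figure D1:**
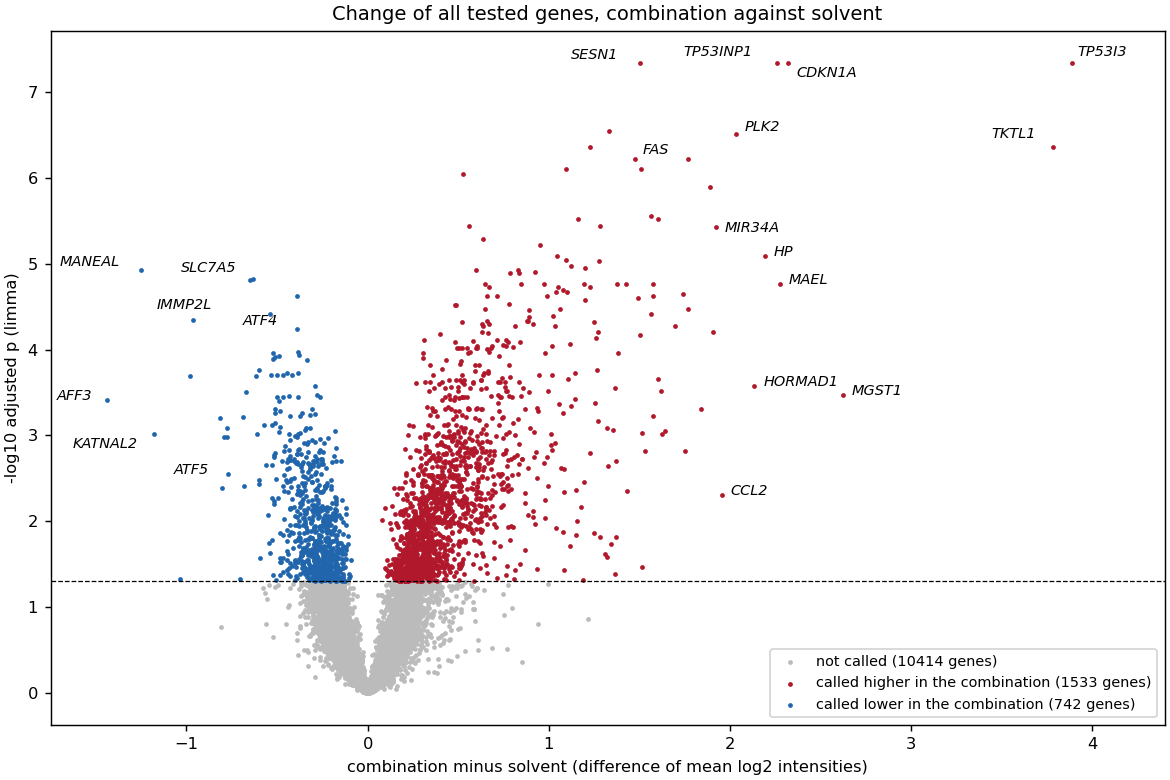
Each point is 1 of the 12689 tested genes, with the difference of mean log2 intensities, combination minus solvent (3 arrays each), on the x axis and the −log10 adjusted p of limma on the y axis, and the dashed line marks 0.05. Large changes lie to the right: TP53I3 and TKTL1 were near 4 log2 units higher, while AFF3, the lowest called gene, was at −1.44.

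Groups rarely overlapped among the called genes. In 2249 of the 2275 calls every combination array lay on one side of every solvent array, which was also true of 38.4% of all tested genes. The difference between same-numbered arrays was positive in all 3 experiments for 1532 of the 1533 genes called higher and negative in all 3 for 739 of the 742 called lower, against 32.1% and 26.4% of all tested genes. In 32 of the genes that rose, 17 of them by at least 2-fold, every ASTX660 and solvent array lay below its array's median, so these transcripts were dim without SGI-110. They passed the filter only through SGI-110-treated arrays, as did 53 tested genes in all, so these counts are a description.

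The highest difference belonged to TP53I3, an oxidoreductase induced by p53, with 8.96, 8.48 and 9.03 in combination arrays and 4.87, 5.23 and 4.71 in solvent arrays. The groups lay more than 3 log2 units apart at their nearest arrays, and the difference was 3.89 ± 0.197 (SE, n = 3 each), 14.8-fold, with an adjusted p of 4.59e-08. TKTL1, a transketolase-like protein with germline expression, had 7.88, 7.67 and 8.40 in combination arrays and 4.55, 4.19 and 3.86 in solvent arrays, a 13.8-fold difference. MGST1, a membrane glutathione S-transferase that detoxifies lipid peroxides, had 6.67, 6.46 and 7.78 in combination arrays and 4.09, 4.44 and 4.51 in solvent arrays. Its array 13 stood above the other two in the combination, and the difference was 2.62 with an adjusted p of 0.000334. HP, the haemoglobin scavenger haptoglobin, had 7.49, 6.84 and 7.26 in combination arrays and 5.17, 5.00 and 4.84 in solvent arrays, a difference of 2.19. KANK2, a cytoskeletal adaptor, rose by 1.90, PLAAT3, a phospholipase and acyltransferase, by 1.89, NAV3, a microtubule-associated protein, by 1.84 and MXRA7 by 1.77. A second bright probe set gave −0.03 for KANK2 and 0.45 for PLAAT3, so those rises rest on 1 probe set each. MGST1 belongs to the oxidative stress list, KANK2 and PLAAT3 to none.

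**Figure D2:**
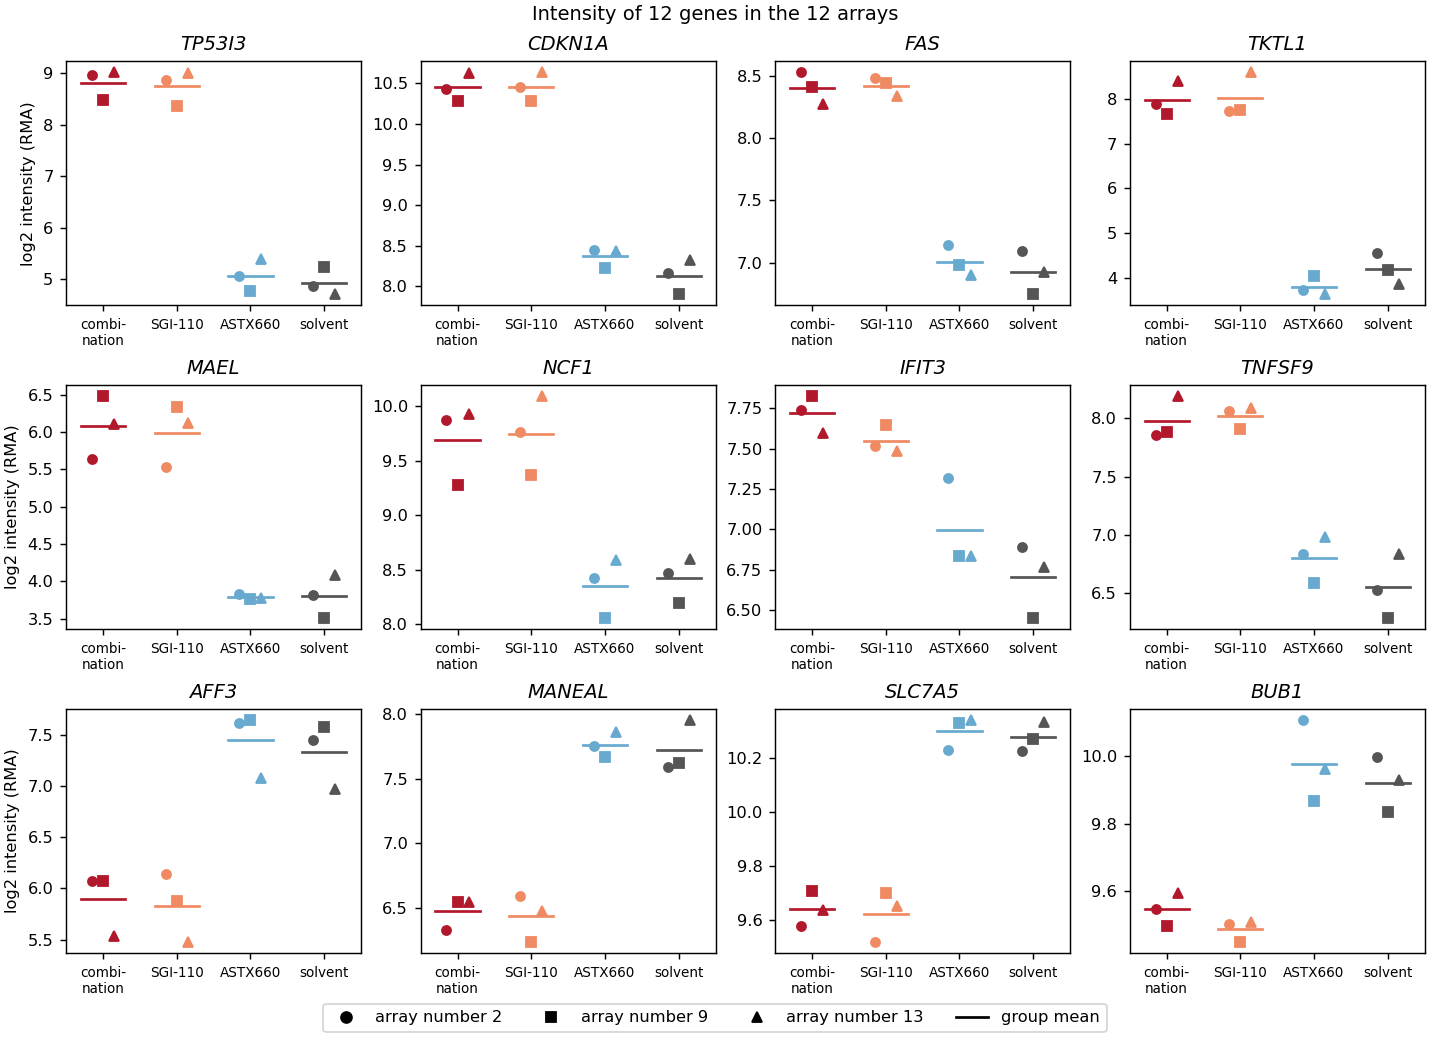
Log2 intensity of 12 genes in each array, with groups from left to right as combination, SGI-110, ASTX660 and solvent, marker shapes for array numbers 2, 9 and 13, and bars at group means. The SGI-110 arrays lie beside the combination arrays and the ASTX660 arrays beside the solvent arrays for most of the 12 genes, while AFF3, MANEAL, SLC7A5 and BUB1 are lower in the combination than in solvent.

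Genes activated by p53 had the highest median difference of the lists plotted by member. Of 50 members, 47 were tested, 37 rose and 1 fell, against 12.1% and 5.85% of all tested genes, with a median difference of 0.67, against 0.00 over all tested genes. The mean level of the 47 members was 8.70, 8.65 and 8.69 in combination arrays and 7.88, 7.79 and 7.84 in solvent arrays. By role, 6 of 8 arrest genes, 5 of 6 feedback genes, 8 of 9 repair and antioxidant genes, 8 of 11 cell death genes and 10 of 13 membrane, lysosome and other genes rose. CDKN1A, the p21 inhibitor of cyclin-dependent kinases, had 10.43, 10.29 and 10.63 in combination arrays and 8.17, 7.90 and 8.32 in solvent arrays. All combination arrays lay about 2 log2 units above all solvent arrays, a 4.99-fold difference with an adjusted p of 4.59e-08. MDM2, the ubiquitin ligase that returns p53 to its low level, had 11.36, 11.58 and 11.35 in combination arrays and 10.22, 9.99 and 10.07 in solvent arrays, a difference of 1.34, with its 9 bright probe sets between 0.27 and 2.41. The gene of p53 itself was not analysed here. GDF15, 1 of the risen arrest genes, passed the filter only through SGI-110-treated arrays, so its rise is a description.

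Further p53 targets rose. TP53INP1, which promotes autophagy and cell death, had 7.03, 6.79 and 6.94 in combination arrays and 4.81, 4.50 and 4.66 in solvent arrays. PLK2, a stress-induced polo-like kinase, had 7.79, 7.84 and 7.69 in combination arrays and 5.87, 5.60 and 5.75 in solvent arrays. SESN1, a sestrin that restrains mTORC1, had 9.34, 9.30 and 9.27 in combination arrays and 7.91, 7.79 and 7.71 in solvent arrays. None of these 3 genes had overlapping groups, and their differences were 2.26, 2.03 and 1.5. MIR34A, whose sequences are printed above, had 7.52, 7.55 and 7.47 in combination arrays and 5.81, 5.51 and 5.46 in solvent arrays. Its difference of 1.92 had an SE of 0.154 and an adjusted p of 3.75e-06. Other members outside the naming rule included GADD45A, which binds repair and cell cycle proteins, with a rise of 1.56, and DDB2, a sensor of ultraviolet damage, with 1.04. GDF15, a stress cytokine, differed by 1.5, a description because it passed the filter only through SGI-110-treated arrays.

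Death receptors rose in part, among them FAS and TNFRSF10B, which p53 is known to induce. Of 16 tested members of the death receptor list, 7 rose and 2 fell (43.8% and 12.5%, against 12.1% and 5.85% of all tested genes). There were 4 risen members left without solvent array 9, and from 0 to 2 fallen members when any single array was left out. FAS, the receptor for FASLG, had 8.53, 8.41 and 8.27 in combination arrays and 7.09, 6.75 and 6.93 in solvent arrays. No arrays overlapped, and the 2.79-fold difference had an adjusted p of 6.07e-07. TNFRSF10B, a TRAIL receptor with a death domain, had 10.55, 10.49 and 10.42 in combination arrays and 9.62, 9.44 and 9.54 in solvent arrays, 1.93-fold. The decoy receptor TNFRSF10D rose by 1.02, while TNFRSF10C and TNFRSF25, both outside the naming rule, fell by 0.30 each. TNF, the ligand whose signal IAP antagonists convert to death, had 6.93, 6.94 and 6.97 in combination arrays and 6.11, 6.33 and 6.34 in solvent arrays. Its difference was 0.69 with an adjusted p of 9.12e-05. TNFSF10, the TRAIL ligand, rose by 0.52, a call that was lost without solvent array 9 (adjusted p = 0.052), and TNFRSF10A by 0.32, with its call lost without combination array 9, combination array 13 or solvent array 9.

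The transcripts of XIAP and BIRC2, both bound by ASTX660 as proteins, were not called. XIAP had 9.07, 9.50 and 9.42 in combination arrays and 9.24, 9.17 and 9.18 in solvent arrays, overlapping groups with a difference of 0.13 and an adjusted p of 0.323. BIRC2 had 9.95, 10.12 and 10.20 in combination arrays and 9.89, 9.89 and 10.07 in solvent arrays, a difference of 0.14 with an adjusted p of 0.238. BIRC3 was not analysed here. Of 9 tested members of the IAP list, HTRA2, a mitochondrial protease that degrades IAP proteins, rose by 0.35 (adjusted p = 0.0023) and NAIP, an inflammasome sensor with IAP repeats, by 0.35, a call that was lost in several alternatives. The second mitochondrial antagonist, DIABLO, differed by 0.02 with an adjusted p of 0.81. XAF1, which binds XIAP, differed by −0.30 and BIRC5, survivin, by −0.11, and both were called lower with the array number as a block (adjusted p = 0.0129 and 0.042). The 2 risen members were 22.2% of those tested in this list, against 12.1% of all tested genes. Leaving out single arrays gave 1 or 2 risen members.

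In the mitochondrial arm of apoptosis, BAX rose and most relatives did not pass the test. BAX, the pore-forming effector induced by p53, had 9.81, 9.63 and 9.70 in combination arrays and 8.99, 8.80 and 8.85 in solvent arrays. No arrays overlapped, and the difference of 0.83 was 1.78-fold with an adjusted p of 1.19e-05. BAK1 differed by 0.05 and BCL2L1 by 0.02, neither of them called. MCL1 differed by 0.24 with an adjusted p of 0.101 and was called higher with the array number as a block (adjusted p = 0.00038), while its 6 bright probe sets ran between −0.22 and 0.24. BCL2, the target of venetoclax, fell by 0.25 with an adjusted p of 0.0398, and its 4 bright probe sets ran between −0.44 and 0.03. The 13 tested members of the family gave 2 rises (15.4%) and 1 fall (7.69%), shares near those of all tested genes. There were between 1 and 4 rises when single arrays were left out, and 6 rises and 3 falls with the block. Downstream, APAF1, the scaffold of the apoptosome, rose by 0.43 (adjusted p = 0.00858). Of 11 tested caspase and apoptosome genes 3 rose and 3 fell (27.3% each, against 12.1% and 5.85% of all tested genes). Without combination array 2, 1 fall was left. CASP8 differed by 0.19 and its inhibitory partner CFLAR by 0.18, neither called, though CFLAR was called higher with the block (adjusted p = 0.019). The 12 bright probe sets of CFLAR ran between 0.06 and 0.51.

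Genes of lytic cell death rose in part. Of 15 tested necroptosis and pyroptosis genes 5 rose (33.3%, against 12.1% of all tested genes) and none fell. The median was 0.32, and 8 rose under the block. GSDME, a gasdermin that caspase-3 can open, had 5.70, 5.91 and 5.98 in combination arrays and 4.86, 5.05 and 4.94 in solvent arrays. The difference of 0.91 had an adjusted p of 5.03e-05, and no arrays overlapped. NLRC4, an inflammasome adaptor, rose by 0.75 and RIPK3, the kinase of necroptosis, by 0.40. MLKL, the pore former below RIPK3, differed by 0.32 with an adjusted p of 0.113, and was called with the block (adjusted p = 0.0039).

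**Figure D3:**
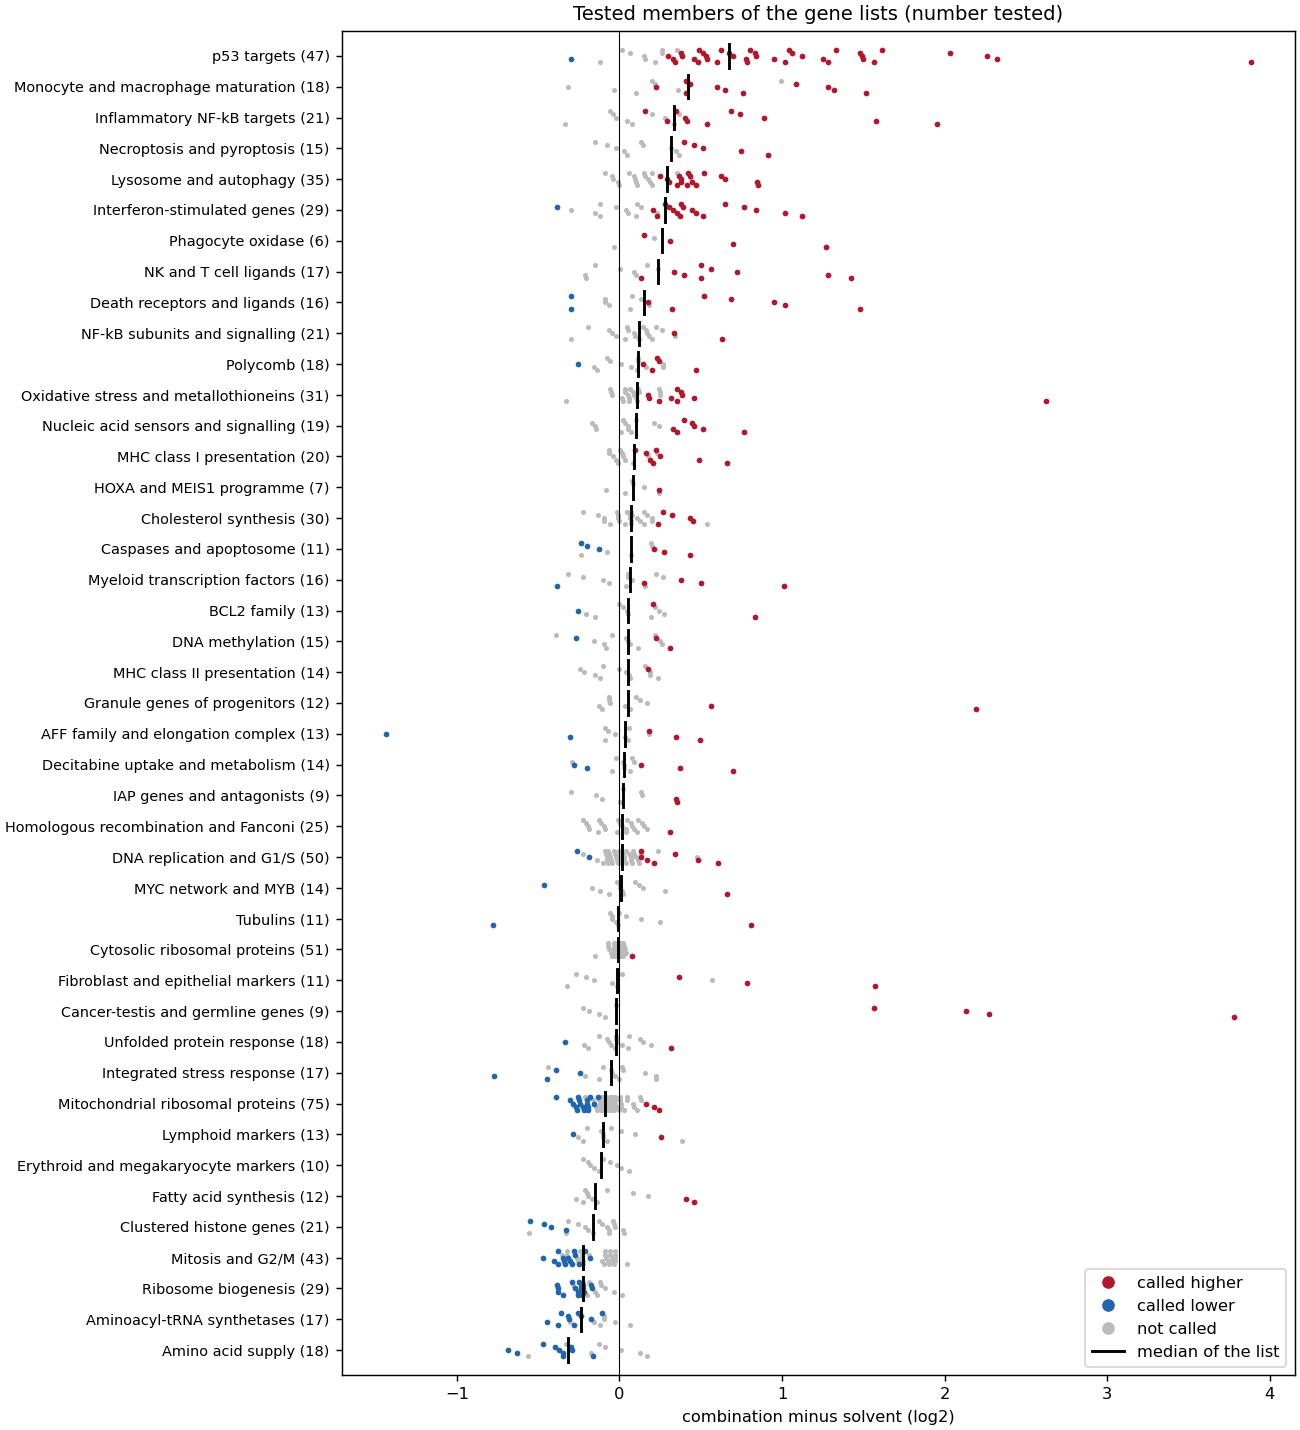
Each row is 1 gene list with the number of tested members in brackets, each point a tested member placed by its difference, combination minus solvent, and each black bar the list's median. The p53 targets, with a median of 0.67, stand at the top, and amino acid supply, with −0.31, at the bottom.

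Some germline genes, which are silent in most somatic cells, were brighter in the combination. Of 50 cancer-testis and germline members, 31 were too dim to test, 10 were not analysed here and 9 were tested, of which 4 rose, TKTL1, MAEL, HORMAD1 and MAGEB2. These had passed the filter through their brightness in SGI-110-treated arrays, so the count is a description, and the other 5 had differences below 0. MAEL, a factor of piRNA biogenesis, had 5.64, 6.48 and 6.10 in combination arrays and 3.81, 3.51 and 4.09 in solvent arrays. HORMAD1, a protein of the meiotic chromosome axis, had 4.89, 5.94 and 6.26 in combination arrays and 3.40, 3.67 and 3.63 in solvent arrays. Together with TKTL1, all were above the solvent arrays in every experiment, with differences of 2.27 for MAEL and 2.13 for HORMAD1. Promoter CpG number had a median of 26 for genes called higher, 26 for genes called lower and 25 for genes not called. Of the 81 genes at least 2-fold higher with a window, 30.9% had fewer than 10 CpG, against 15.2% of all tested genes. Among genes with a solvent mean of 7 or below the shares were 31.1% of 61 genes and 27.3% of 3851.

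Of 15 tested DNA methylation genes 2 rose (13.3%) and 1 fell (6.67%), shares near those of all tested genes, and 5 rose and 2 fell with the block. DNMT1, the maintenance methyltransferase that decitabine traps as a protein, differed by 0.11 (adjusted p = 0.0988) and DNMT3A by 0.26 (adjusted p = 0.0911), both called only with the block, at 0.035 and 0.028. The methyltransferase DNMT3B rose by 0.31, with an adjusted p of 0.0324 by limma. ZBTB33, a reader of methylated DNA, fell by 0.27 and MBD4, a glycosylase of methylated sites, rose by 0.22. In the pathway that takes up and breaks down decitabine, 3 of 14 tested genes rose and 2 fell (21.4% and 14.3%). The shares over all tested genes were 12.1% and 5.85%. RRM2B, a ribonucleotide reductase subunit induced by p53, rose by 0.70, SAMHD1 by 0.38 and RRM2 by 0.13. The deaminase DCTD fell by 0.28 and NT5C3A by 0.20. The activating kinase DCK differed by 0.03 and was not called. Among 18 polycomb genes, 5 rose and 1 fell (27.8% and 5.56%, against 12.1% and 5.85% of all tested genes). CBX7, a reader of the repressive histone mark, was higher by 0.47. With the block 8 of the 18 rose. Leaving out single arrays gave 1 to 5 risen polycomb genes, the lowest count without combination array 9.

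Inflammatory genes rose in part. Of 21 tested targets of inflammatory NF-kB signalling, 11 rose and none fell, with a median of 0.34, and 1 fell with the block. CCL2, which draws monocytes, had 10.26, 9.70 and 10.99 in combination arrays and 7.95, 7.96 and 9.17 in solvent arrays. Array 13 was the brightest in both groups, and the difference of 1.96 had an SE of 0.411 and an adjusted p of 0.00498. IER3, an early response gene, had 6.71, 6.39 and 6.91 in combination arrays and 5.41, 4.88 and 4.99 in solvent arrays, a difference of 1.58. CXCL1, a neutrophil chemokine whose promoter is printed above, had 9.21, 8.88 and 8.94 in combination arrays and 8.45, 7.85 and 8.06 in solvent arrays, a difference of 0.89. CXCL8, a second neutrophil chemokine, rose by 0.74, and both lie outside the naming rule. Of 21 subunits and signalling genes of NF-kB 2 rose (9.52%, below the share of all tested genes) and none fell, with 1 to 4 rises when single arrays were left out and 5 rises and 1 fall under the block. MAP3K14, the kinase held down by the cellular IAP proteins, differed by 0.34 with an adjusted p of 0.0536, and was called with the block (adjusted p = 0.023). TRAF3, its adaptor, differed by 0.05.

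Interferon-stimulated genes rose in part. Of 29 tested members of 42, 17 rose and 1 fell (2 fell with the block), with a median of 0.28, and the rises numbered 10 without solvent array 9 and 11 without combination array 2, combination array 13 or solvent array 13. IFIT3, an antiviral protein that binds IFIT1, had 7.74, 7.83 and 7.60 in combination arrays and 6.89, 6.45 and 6.77 in solvent arrays. The groups did not overlap, and the 2.02-fold difference had an adjusted p of 2e-04, although its second bright probe set gave 0.58. TRIM22, an antiviral ubiquitin ligase that p53 also induces, had 10.58, 10.53 and 10.56 in combination arrays and 9.64, 9.27 and 9.39 in solvent arrays. HERC5, the ligase for ISG15, rose by 0.65 and OAS3, a sensor of double-stranded RNA, by 0.51. MX1, a classical interferon target chosen after its value was seen, fell by 0.39. Among 19 sensors of nucleic acids and their signalling genes 7 rose (36.8%, against 12.1% of all tested genes) and none fell. IRF7, the transcription factor that amplifies interferon production, had 8.14, 8.0 and 8.15 in combination arrays and 7.28, 7.43 and 7.29 in solvent arrays, and the kinase TBK1 rose by 0.40.

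Of genes that make a cell visible to T cells and natural killer cells, MHC class I chains and several ligands rose. Of 20 tested MHC class I genes 8 rose and none fell, and the rises sat in the chains: all 6 tested heavy and light chain genes rose, against 1 of 13 genes of peptide supply, and the class I transactivator NLRC5 rose by 0.49. The changes of the chains were small, at 0.25 for HLA-E, 0.22 for HLA-B and 0.20 for HLA-C. Reads of these chains can be shared among their close relatives on the array, so single members are uncertain. TAP1, which pumps peptides into the endoplasmic reticulum, had 8.20, 8.06 and 8.10 in combination arrays and 7.36, 7.48 and 7.53 in solvent arrays, a rise of 0.66. Of 14 class II genes 1 rose (7.14%, below the share of all tested genes), a call lost in 6 of the settings that left out an array, and with the block 3 rose and 1 fell. Among ligands, 6 of 9 for T cells and 3 of 8 for natural killer cells rose, and 1 of the 9 passed the filter only through SGI-110-treated arrays. TNFSF9, a costimulatory ligand of T cells, had 7.86, 7.88 and 8.19 in combination arrays and 6.52, 6.29 and 6.84 in solvent arrays. Its difference of 1.43 had an adjusted p of 1.73e-05. CD70, the ligand of CD27, rose by 0.73. ULBP2, a stress ligand of the NKG2D receptor, had 6.97, 6.97 and 6.98 in combination arrays and 6.38, 6.47 and 6.38 in solvent arrays.

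Markers of monocyte maturation rose, with more spread among experiments. Of 18 tested members of 29, 11 rose and none fell (1 fell with the block), with a median of 0.42, and the rises numbered 6 without solvent array 9 and 7 without combination array 2, combination array 13 or solvent array 2. Among the tested members 2 passed the filter only through SGI-110-treated arrays. CSF1R, the receptor for macrophage colony-stimulating factor, had 6.71, 6.12 and 6.63 in combination arrays and 5.65, 5.70 and 5.83 in solvent arrays, a difference of 0.76. CCR1, a chemokine receptor, rose by 0.65, ITGB2, the shared chain of the leukocyte integrins, by 0.60 and MNDA, which is found in the nuclei of myeloid cells, by 0.41. VCAN, a monocyte proteoglycan chosen after its values were seen, had 7.38, 7.04 and 8.48 in combination arrays and 5.82, 5.58 and 6.95 in solvent arrays. Array 13 was the brightest of both groups, its solvent array lay just under the lowest combination array, and the adjusted p was 0.0336. The phagocyte oxidase, which makes superoxide, had 4 of 6 tested genes higher. NCF1, its p47 subunit, had 9.88, 9.28 and 9.93 in combination arrays and 8.47, 8.20 and 8.60 in solvent arrays, a difference of 1.27, and CYBB, the catalytic chain, rose by 0.70, although its second bright probe set gave 0.10.

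Among transcription factors of the myeloid lineage, EGR1 rose and IRF8 fell. EGR1, a zinc finger factor of macrophage fate and of growth signals, had 5.63, 5.36 and 5.40 in combination arrays and 4.54, 4.39 and 4.42 in solvent arrays, a rise of 1.01. Every solvent array of EGR1 lay below its array's median. In this list 1 member passed the filter only through SGI-110-treated arrays, and the rise of EGR1 is a description. IRF8, which directs progenitors to the monocyte fate, had 11.56, 11.31 and 11.37 in combination arrays and 11.82, 11.74 and 11.84 in solvent arrays, and fell by 0.39 (adjusted p = 0.000953). In all, 4 of 16 tested factors rose and 1 fell (25% and 6.25%, against 12.1% and 5.85% of all tested genes). There were 1 to 4 rises when single arrays were left out, the lowest without combination array 2. Of 12 granule genes of progenitors 2 rose (16.7%, against 12.1% of all tested genes), HP and, by 0.56, the antimicrobial peptide CAMP, and with the block 5 rose and 3 fell. HOXA9 was not analysed here, and 1 of 7 tested genes of the HOXA and MEIS1 programme rose (14.3%, near the share of all tested genes), a call lost in 5 of the settings that left out an array, and 2 rose with the block.

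The lowest called gene was AFF3, a scaffold of the super elongation complex family whose members are partners of KMT2A fusions. It had 6.07, 6.07 and 5.54 in combination arrays and 7.45, 7.58 and 6.97 in solvent arrays, with array 13 lowest in both groups. The difference of −1.44 was 2.71-fold lower with an adjusted p of 0.000391, and a second bright probe set gave −0.68. Of 13 genes of the AFF family and the elongation complex 3 rose and 2 fell (23.1% and 15.4%). The shares over all tested genes were 12.1% and 5.85%. AFF4 was higher by 0.50 and HEXIM1, which holds the elongation kinase inactive, by 0.35. MANEAL, an endomannosidase-like protein, had 6.32, 6.54 and 6.55 in combination arrays and 7.59, 7.62 and 7.96 in solvent arrays, a difference of −1.25. KATNAL2, a katanin-like microtubule severing protein, had 5.82, 5.34 and 5.32 in combination arrays and 6.53, 6.39 and 7.10 in solvent arrays. NKD2, an antagonist of Wnt signalling, had 7.10, 7.40 and 7.18 in combination arrays and 8.08, 8.34 and 8.19 in solvent arrays. No arrays of these 3 genes overlapped. IMMP2L, a peptidase of the inner mitochondrial membrane, fell by 0.97, GRB10, an adaptor of the insulin receptor, by 0.82 and TUBE1, epsilon tubulin, by 0.78. IGLL1, the surrogate light chain, fell by 1.03 with an adjusted p of 0.0469, a call lost in 9 alternatives.

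Many genes that supply amino acids and charge tRNA fell. Of 18 tested amino acid supply genes 10 fell and none rose (1 rose with the block), with a median of −0.31, and 10 of 17 aminoacyl-tRNA synthetase genes fell and none rose, with a median of −0.24. By role, 5 of 8 serine, glycine and folate enzymes and 5 of 10 transporters and other enzymes fell. SLC7A5, the light chain of the leucine transporter, had 9.58, 9.71 and 9.64 in combination arrays and 10.23, 10.27 and 10.33 in solvent arrays. The arrays lay 0.5 or more apart, and the difference of −0.63 was 1.55-fold lower with an adjusted p of 1.51e-05. BCAT1, a transaminase of branched-chain amino acids, had 10.42, 10.66 and 10.26 in combination arrays and 11.06, 11.25 and 11.10 in solvent arrays. The mitochondrial folate enzymes SHMT2 and MTHFD2 fell by 0.37 and 0.29, and the arginine transporter SLC7A1 by 0.34. Among synthetases, YARS1 fell by 0.45, LARS1 by 0.38, GARS1 by 0.36 and IARS1 by 0.28.

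ATF4, the transcription factor of the integrated stress response that activates many of those genes, had 12.07, 12.09 and 12 in combination arrays and 12.38, 12.44 and 12.50 in solvent arrays. It fell by 0.39 with an adjusted p of 5.7e-05. Its relative ATF5 had 9.37, 9.85 and 9.46 in combination arrays and 10.15, 10.60 and 10.25 in solvent arrays, a difference of −0.77, with its 4 bright probe sets between −0.77 and −0.16. ASNS, whose promoter is printed above, fell by 0.45 with an adjusted p of 0.037, and that call was lost without combination array 2, combination array 13, solvent array 9 or solvent array 13. In the integrated stress response list 4 of 17 genes fell (23.5%, against 5.85% of all tested genes) and none rose. Without solvent array 9, 2 falls were left, and with the block 5 fell and 2 rose. The unfolded protein response list had 1 rise, EDEM1 with 0.32, and 1 fall, XBP1 with −0.34, among 18 genes (5.56% each), and 3 rises and 4 falls with the block.

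MYC and the genes of ribosome assembly were lower. MYC had 11.25, 11.12 and 10.91 in combination arrays and 11.58, 11.57 and 11.53 in solvent arrays, a fall of 0.47 (SE 0.066, adjusted p = 0.000353). Of 29 tested ribosome biogenesis genes 18 fell and none rose, with a median of −0.23. NOP16, a nucleolar protein, had 10.96, 10.81 and 10.89 in combination arrays and 11.27, 11.28 and 11.27 in solvent arrays. The groups did not overlap, although its 4 bright probe sets ran between −0.46 and 0.11. LYAR fell by 0.38, TSR1 by 0.29, RRS1 by 0.25 and NHP2, a protein of small nucleolar particles and telomerase, by 0.18, although 1 of 4 bright probe sets of TSR1 gave 0.13. An E-box (CACGTG) stood in the promoter window of 11 of 24 members, against 7.40% of all promoters. It stood in 5 of the 14 that fell and in 6 of the 10 not called. In contrast, 1 of 51 cytosolic ribosomal protein genes rose and none fell, with a median of −0.01, although 12 fell after centring on the tested genes and 1 with the block. Of 75 mitochondrial ribosomal protein genes 17 fell and 3 rose, and the falls numbered 7 without combination array 13, 10 without solvent array 2, 8 without solvent array 9 and 11 without solvent array 13. MRPL15 fell by 0.39, MRPL4 by 0.31 and MRPL3 by 0.27.

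Mitotic genes fell in part. Of 43 tested genes of mitosis and G2/M 15 fell and none rose, with a median of −0.23, and 27 fell with the block. BUB1, a kinase of the spindle checkpoint, had 9.54, 9.50 and 9.59 in combination arrays and 10.00, 9.84 and 9.93 in solvent arrays, a fall of 0.38 (adjusted p = 0.00143). HMMR, a spindle assembly factor, had 10.76, 10.86 and 11.06 in combination arrays and 11.41, 11.17 and 11.52 in solvent arrays. CCNB2, whose promoter is printed above, had 11.56, 11.49 and 11.52 in combination arrays and 11.90, 11.79 and 11.89 in solvent arrays. All 3 genes kept their groups apart, with falls of 0.47 for HMMR and 0.33 for CCNB2. CCNB1, the partner of CDK1, fell by 0.31 and CKS2, its subunit, by 0.32. Of 50 replication and G1/S genes 7 rose (14%) and 2 fell (4%), shares near those of all tested genes, with a median of 0.01. With the block 5 fell, and the unblocked rises numbered 4 without combination array 9, combination array 13 or solvent array 2 and 3 without solvent array 9. E2F7, a repressor of E2F targets that p53 induces, had 10.31, 10.48 and 10.53 in combination arrays and 9.81, 9.76 and 9.94 in solvent arrays, although its second bright probe set gave −0.10. Of 21 clustered histone genes 4 fell (19.0%, against 5.85% of all tested genes) and none rose. Of 25 homologous recombination and Fanconi genes 1 rose (4%), a call lost in 6 of the settings that left out an array. With the block 4 of these 25 genes fell.

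Lysosome and autophagy genes rose in part. Of 35 tested members 17 rose and none fell, with a median of 0.29, 11 of 22 lysosome genes and 6 of 13 autophagy genes, and 26 rose with the block. NEU1, a lysosomal sialidase, had 9.03, 8.92 and 8.82 in combination arrays and 8.10, 8.13 and 8.0 in solvent arrays, a difference of 0.85 with an adjusted p of 1.73e-05. FUCA1, a fucosidase and p53 target, rose by 0.63, CTSB, cathepsin B, by 0.52, ATP6V0D1, a subunit of the proton pump, by 0.45 and SQSTM1, the autophagy receptor p62, by 0.43. TFEB, the master regulator of the lysosome, rose by 0.65 and WIPI1, a protein of the early autophagosome, by 0.85, both named after their values were seen. Of 31 oxidative stress and metallothionein genes 10 rose and none fell (1 fell with the block), 5 of 6 metallothioneins among them, with MT2A higher by 0.46 and MT1X by 0.35. NQO1 and SRXN1, both targets of NRF2, rose by 0.38 each.

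What ASTX660 adds to SGI-110 was read from the combination minus SGI-110, in which no gene was called by limma. The labels give SGI-110 for 24 h in the combination and for 33 h alone. A difference in SGI-110 exposure cannot be told apart from an effect of ASTX660 here, in the blocked calls or in the interaction. At an unadjusted p under 0.05 there were 370 genes (2.92%), the smallest adjusted p was 0.689, and robust and array-weighted fits of limma gave 361 and 626 such genes with none called. These fits had no block, so differences between experiments stayed in their spread. With the block limma gave 590 genes at an unadjusted p under 0.05. The 95% confidence interval of the difference lay within 1.5-fold for 98.8% of tested genes. Among the 110 genes at least 2-fold changed by the combination, the combination minus SGI-110 ran from −0.23 to 0.41. The 3 highest, all outside the naming rule, were MAP3K8 with 0.41, ZNF366 with 0.40 and HINT3 with 0.40. MAP3K8, a kinase above ERK in inflammatory signalling, had 5.44, 5.32 and 4.86 in combination arrays, 5.10, 4.92 and 4.38 in SGI-110 arrays, 4.91, 4.45 and 4.0 in ASTX660 arrays and 4.36, 4.03 and 3.78 in solvent arrays.

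With the array number as a block, 10 genes (0.0788%) were called between the combination and SGI-110, all higher in the combination, and 8 of them make or regulate cholesterol. The 8 were MSMO1, EBP, FDPS, IDI1, INSIG1, SQLE, ACAT2 and LSS, and the others were SCD, a fatty acid desaturase, and TUBA1A, an alpha tubulin. MSMO1, which removes methyl groups from sterols, had 10.30, 10.51 and 10.24 in combination arrays, 9.85, 10.07 and 9.80 in SGI-110 arrays, 10.65, 10.57 and 10.44 in ASTX660 arrays and 10.21, 10.39 and 10.25 in solvent arrays. Each combination array stood 0.4 or more above the SGI-110 array of its number, and the blocked adjusted p was 0.00309. Against solvent MSMO1 differed by 0.06 in the combination, by −0.38 under SGI-110 and by 0.27 under ASTX660, 3 differences that share the solvent arrays. IDI1, an isoprenoid isomerase, followed with 0.05, −0.26 and 0.22, LSS, lanosterol synthase, with 0.07, −0.26 and 0.45, and SCD with −0.20, −0.56 and 0.17. The blocked calls numbered 2 without number 2, 1 without number 9 and 0 without number 13.

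**Figure D4:**
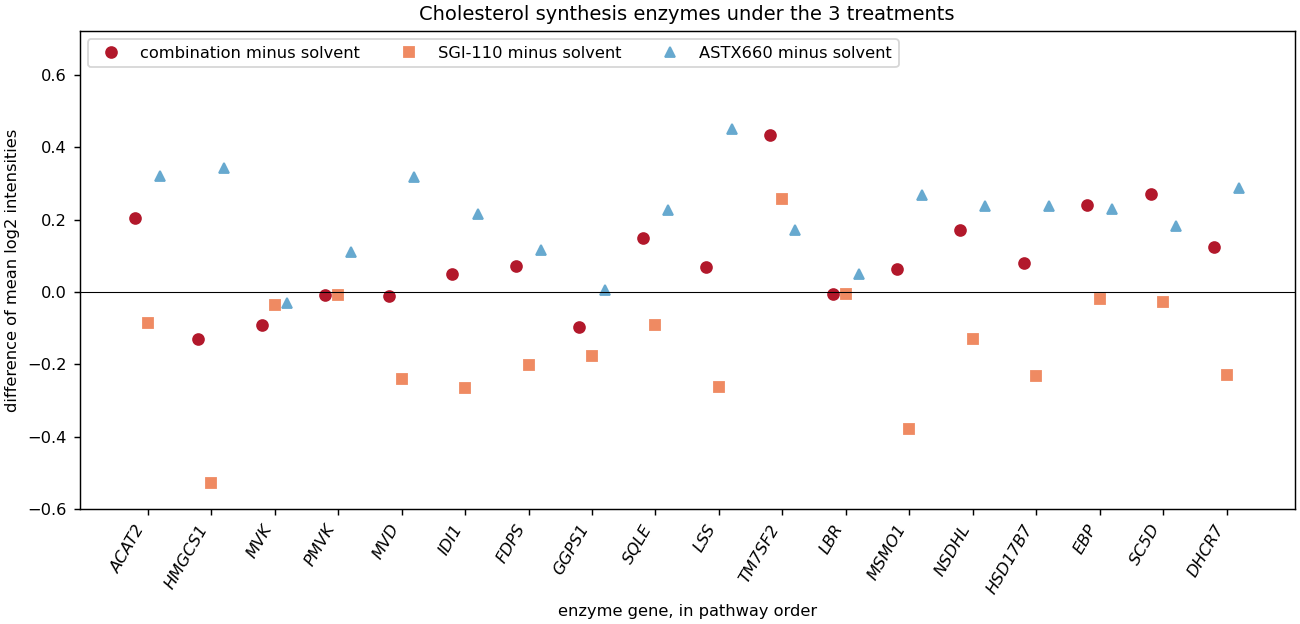
For 18 tested enzymes of cholesterol synthesis in pathway order, the y axis gives the difference from solvent in mean log2 intensity under the combination (circles), SGI-110 (squares) and ASTX660 (triangles), all against the same 3 solvent arrays. The triangles lie above 0 for all but MVK, the squares lie at or below 0 for all but TM7SF2, and the circles lie between them for most enzymes.

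The cholesterol list as a whole moved little against solvent. Of 30 tested members 5 rose (16.7%, against 12.1% of all tested genes) and none fell in the combination, with 3 rises left without solvent array 9, 9 rises with the block and a median of 0.07, against medians of −0.04 under SGI-110 and 0.17 under ASTX660. The combination stood above SGI-110 in 26 of the 30 genes, against 58.7% of all tested genes, with a median of 0.23. The risen members were NPC1, which exports cholesterol from lysosomes, with 0.45, TM7SF2, a sterol reductase, with 0.43, STARD4, a sterol carrier, with 0.32, SC5D, a sterol desaturase, with 0.27 and EBP, a sterol isomerase, with 0.24. A sterol response element (TCACNCCAC) stood in the window of 1 of 28 members, against 1.13% of all promoters.

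The question of what SGI-110 adds to ASTX660 is answered by the combination minus ASTX660, in which 2038 genes (16.1%) were called, 1062 higher (8.37%) and 976 lower (7.69%). Of the 110 genes at least 2-fold changed against solvent, 104 were called here too, though both comparisons hold the combination arrays. The calls numbered 1310 without combination array 2 and 1313 without combination array 13. CDKN1A, TP53I3 and FAS stood in the ASTX660 arrays near their solvent level, as the plot of 12 genes by array shows. Alone, SGI-110 gave 1955 calls against solvent (15.4%), and ASTX660 gave none by limma, with 894 genes (7.05%) at an unadjusted p under 0.05 and 1 (0.00788%) called with the block.

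Whether the combination departed from the sum of its parts was tested by the interaction on the log2 scale, and no gene was called by limma, with or without the block. There were 204 genes (1.61%) at an unadjusted p under 0.05, and the smallest adjusted p was 0.644. The 95% interval lay within 1.5-fold for 92.7% of tested genes, and the median SE of the interaction was 0.120. IFIT3 differed from solvent by 1.02 in the combination, 0.85 under SGI-110 and 0.29 under ASTX660. WIPI1 had the values 0.85 in the combination, 0.64 under SGI-110 and 0.58 under ASTX660, and its interaction of −0.37 had an interval from −0.84 to 0.09.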

How the data were processed

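Total RNA from ML-2 cells was amplified, labelled with biotin and hybridised to Affymetrix HG-U133 Plus 2.0 arrays, per the labels' protocols. The deposited values are log2 intensities that the authors made with affy and RMA, per the submitters' processing notes (versions not given), 1 column for each of 12 samples. Arrays give no counts, so their number limits the precision. Of 54675 probe sets, 41091 had 1 gene symbol, 1801 several and 11777 were not listed in the annotation used. For each of 19775 genes the brightest of its probe sets, by its mean over the arrays, was used, and 12689 genes above the array median in at least 3 arrays were tested.

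All 12 arrays were fitted together with limma 3.58.1 in R 4.3.3 (lmFit, eBayes with a trend), with 1 mean per group and no block, and p-values were adjusted by Benjamini-Hochberg over all tested genes. Genes with an adjusted p under 0.05 were called. The named genes were the 15 highest and 15 lowest called genes without overlap, up to 5 members of each list by adjusted p, and a panel of apoptosis and methylation genes, and any others are said to be named after their values were seen or outside the rule (MIR142 and the blocked calls against SGI-110 are outside it too). The members, lists and panel were chosen with earlier results of these data known. Same-numbered arrays deviated together most for number 13. For numbers 2, 9 and 13 the correlations (r) were 0.150, 0.159 and 0.541 between the combination and solvent. They were 0.208, 0.484 and 0.544 between the combination and SGI-110, and 0.0570, 0.158 and 0.539 between the combination and ASTX660. The array numbers were used as pairs in the same-number differences and in the alternative with a block, while the main fit left them out. The fit was tested on simulated data. Nothing says that the arrays came from separate cultures beyond the design text, so p-values measure the spread between these samples.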

Additional observations from a re-analysis of the deposited data

How the results depend on the processing

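Among the filters, probe set rules, scalings and spread estimates tried, the 2275 genes called between the combination and solvent moved by more than 1.5 times with the array number as a block (3632) and when at least 2-fold was also required (110). Leaving out single arrays gave 1389 genes (without solvent array 9) to 2751 (without ASTX660 array 2). Between the combination and ASTX660, the 2038 calls became 1232 with only those 6 arrays fitted, 3378 with the block, 82 at 2-fold or more, and 1310 to 1992 with single arrays left out, 1313 without combination array 13. Between the combination and SGI-110 the block gave 10 genes, with 2, 1 and 0 when numbers 2, 9 and 13 were left out, a setting chosen after seeing the data, and every other alternative gave 0. The interaction gave 0 in all alternatives. Blocked list counts that moved by more than 1.5 times stand with the results. The cause of these shifts was not tested, apart from the smaller number of arrays.

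Of 255 named genes 179 were called, 121 of them in every alternative, 58 lost the call in at least 1 and 49 others gained one. With the probe set of largest variance, CCNT1 (−0.0528), CYBA (−0.0308) and FARSB (0.0669) changed sign, as did RPS19 (−0.00036) after centring on the tested genes, a centring added after seeing the data, and none was called there. The medians of the p53, interferon, inflammatory, lysosome, monocyte, mitosis, ribosome biogenesis, amino acid and tRNA synthetase lists kept their sign under all scalings, while falls in the cytosolic ribosomal protein list appeared (12) after centring on the tested genes. Other bright probe sets of some named genes gave smaller changes, among them APAF1 (0.18), HEXIM1 (0.17), HTRA2 (0.12), SQSTM1 (0.11), TNFRSF10A (0.06), TNFSF10 (0.21), ULBP2 (0.21), LARS1 (−0.12), MRPL4 (−0.06), SLC7A1 (−0.09) and YARS1 (−0.19), and opposite signs for EBP (−0.06) and NAIP (−0.15). Smaller changes also came from other bright probe sets of TKTL1 (2.36), IFIT3 (0.58) and TNFRSF10D (0.58). On simulated data for the combination against solvent over 12689 genes, 83% of log2 changes of 0.5 and 99% of changes of 1 were recovered. There were 8 false among 190 calls, and changes much under 0.5 can be missed. The simulation changed 100 genes at each size and drew independent noise, without deviations shared by array number. Far fewer genes changed there than were called in the data, so these rates need not carry over.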

Other observations

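Genes outside every list that changed at least 2-fold, all named after their values were seen, included further genes of myeloid and immune cells. LGALS3, the lectin galectin-3, had 11.06, 10.94 and 11.22 in combination arrays and 9.89, 9.73 and 9.91 in solvent arrays, a difference of 1.23 with an adjusted p of 4.42e-07 by limma. TYROBP, an adaptor of activating myeloid receptors, had 10.16, 9.89 and 10.18 in combination arrays and 9.08, 8.83 and 9.07 in solvent arrays, and its partner receptor TREM2 differed by 1.23. SAT1, which breaks down polyamines, had 9.28, 9.14 and 9.15 in combination arrays and 8.15, 8.05 and 8.08 in solvent arrays, a difference of 1.10. NFE2, a transcription factor of megakaryocytes and red cells, differed by 1.14, and CDKN1C, a second inhibitor of cyclin-dependent kinases, by 1.43. No combination array overlapped a solvent array in LGALS3, TYROBP or SAT1.

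Of the tested genes of single chromosomes, the share called higher ran from 7.27% on chromosome 18 to 16.9% on chromosome 12, and the share called lower from 3.86% on chromosome 1 to 11.7% on chromosome 13.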
